A study of Homo sapiens with 8 samples.

Results

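The ATG8 genes encode small ubiquitin-like proteins of autophagy, the pathway by which cells enclose cytoplasm, organelles and protein aggregates in a double membrane and deliver them to lysosomes. A protease of the ATG4 family trims each precursor so that it ends in a glycine, and an enzyme cascade then couples that glycine to phosphatidylethanolamine in the growing membrane, where the protein recruits cargo receptors and fusion factors. Human cells have a GABARAP branch (GABARAP, GABARAPL1 and GABARAPL2) and an LC3 branch (MAP1LC3A, MAP1LC3B and relatives). The 5 genes GABARAP, GABARAPL1, GABARAPL2, MAP1LC3A and MAP1LC3B are described here, among 60664 gene identifiers that both count tables hold. GABARAP was chosen by its counts, which lay almost entirely in the PFD input libraries and were low in all others. Its values are therefore given without a test.

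In selective ribosome profiling, the stretches of mRNA shielded by ribosomes are sequenced from all ribosomes (input) and from those recovered by way of a chaperone bound to the nascent chain (pulldown). A difference in such reads cannot be told apart between less mRNA and less translation of it. The cells were U-2 OS, a human osteosarcoma line, of genotype CCT4-Halo (TRiC, the cytosolic chaperonin) or PFDN4-Halo (PFD, prefoldin, which hands substrates to TRiC). Each line was a single clone with a HaloTag knocked in at the endogenous gene, so that line, tag, clone and count table cannot be told apart, and gene counts do not check the tag itself. All cells received cycloheximide at 100 µg per ml for 1 min and the crosslinker DSP at 2 mM for 30 min, and input and pulldown of each line, 4 groups in all, had 2 biological replicates each.

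The libraries held 9523128 to 32637658 counts. Within groups the log2 CPM of replicates (CPM, counts scaled to the library total) correlated across genes with r = 0.994 in the TRiC inputs, 0.991 for TRiC pulldown, 0.961 for PFD input and 0.893 for PFD pulldown, and the common dispersion was 0.0153 for the TRiC libraries against 0.331 for the PFD libraries. Of 7 mesenchymal and bone markers, 6 had at least 1 CPM in every library, and COL1A2 did not, with 0.0531 to 1.96 CPM. None of 5 markers of other cell types reached 1 CPM in every library. EPCAM was the highest of these at up to 18.2 CPM, and it had 1 count in PFD pulldown replicate 1 against 189 to 277 counts in the other 7 libraries.

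The coding sequences show how the members differ and what their counts can resolve. The last 30 coding bases before the stop codon are given below because the glycine codon, in capitals, is the site to which the ATG4 protease trims the precursor. They were read 5′ to 3′ from the transcripts of GENCODE release 44 on hg38, and GABARAPL1 and MAP1LC3A are shown for their canonical transcripts.
GABARAP: gcctacagtgacgaaagtgtctacGGTctg
GABARAPL1: gcctacagtgatgagagtgtctatGGGaaa
GABARAPL2: gcctacagcggagagaacacttttGGCttc
MAP1LC3A: gtctacgcctcccaggaaaccttcGGCttc
MAP1LC3B: caggagacgttcGGGatgaaattgtcagtg
MAP1LC3B2: caggagacgttcGGGatgaaattgtcagtg
In GABARAP, GABARAPL1, GABARAPL2 and MAP1LC3A 1 codon follows the glycine codon, and in MAP1LC3B 5 codons follow it. MAP1LC3B2, a near copy of MAP1LC3B on another chromosome, has the same end.

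On hg38 the GABARAP gene lies on the minus strand of chromosome 17 (7240008 to 7242449). GABARAPL1 lies on the plus strand of chromosome 12 (10212458 to 10223128), GABARAPL2 on that of chromosome 16 (75566375 to 75577881), MAP1LC3A on that of chromosome 20 (34546854 to 34560345) and MAP1LC3B on that of chromosome 16 (87383953 to 87404779). GABARAP and GABARAPL1 share 76.6% of their aligned coding bases, GABARAP and GABARAPL2 62.1%, and MAP1LC3A and MAP1LC3B 73.6%. MAP1LC3B and MAP1LC3B2 share 99.5%, or 373 of 375 bases.

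The authors kept uniquely aligned reads, which affects the members unequally. Of the 28-base windows of the MAP1LC3B coding sequence, 300 of 348 (86.2%) occur elsewhere in the genome, in MAP1LC3B2 and in pseudogenes among other places. The corresponding numbers were 82 of 324 (25.3%) for GABARAP, 75 of 324 (23.1%) for GABARAPL1, and 0 for both GABARAPL2 and MAP1LC3A. The level of MAP1LC3B is therefore uncertain relative to other genes. A fold change compares the same gene between libraries, but for MAP1LC3B it rests on the uniquely aligned reads alone. Whether it holds for the rest of the coding sequence was not tested.

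GABARAPL2, an ATG8 protein also known for a role in Golgi traffic, had the most counts of the family in every library. In the TRiC line it had 2962 and 3057 input counts and 2388 and 1680 pulldown counts, and in the PFD line 2647 and 1448 input counts and 1101 and 3842 pulldown counts. Per kilobase of coding sequence, CPM scaled between libraries by the trimmed mean of M-values (TMM) was 293 ± 11.7 (SD, n = 2) for TRiC input and 195 ± 9.99 for TRiC pulldown, without overlap, and 399 ± 1.64 for PFD input and 363 ± 47.2 for PFD pulldown.

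MAP1LC3B, the ATG8 protein used most widely as a marker of autophagosomes, ranked second in counted reads per kilobase in 3 of the 4 groups. The TRiC line gave 1072 and 1008 input counts and 2340 and 1329 pulldown counts, and the PFD line gave 567 and 278 input counts and 919 and 1715 pulldown counts. CPM per kilobase of coding sequence was 94.9 ± 10.0 (SD, n = 2) in the TRiC inputs and 75.9 ± 6.18 in the PFD inputs, against 162 ± 32.6 for TRiC pulldown and 212 ± 65.0 for PFD pulldown. Pulldown lay above input in both lines without overlap.

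GABARAPL1, a close paralog of GABARAP, had 666 and 907 input counts and 771 and 588 pulldown counts in the TRiC line, with 742 and 452 input counts and 168 and 791 pulldown counts in the PFD line. Its CPM per kilobase of the longest coding sequence was 60.9 ± 9.48 (SD, n = 2), 52.5 ± 0.302, 94.8 ± 6.82 and 52.8 ± 17.7 in the same order of groups, with the PFD inputs above all other libraries. MAP1LC3A, the second LC3 protein, was near the detection limit. It had 9, 13, 19 and 14 counts in the TRiC libraries, 6 and 0 in the PFD inputs and 0 in both PFD pulldowns, and thus stayed under the coverage limit of 0.5 reads per codon that the study used.

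GABARAP, which gave the branch its name as a protein that binds a GABA receptor, had 22 and 17 input counts and 19 and 13 pulldown counts in the TRiC line, 729 and 498 counts as PFD input, and 0 in both PFD pulldowns. In CPM these were 0.785 and 0.555, 0.564 and 0.510, 38.7 and 48.1, and 0. The PFD inputs stood apart from the other 6 libraries, which was the basis of the choice. Pooled over replicates the gene had 10.5 reads per codon in the PFD inputs against 0.333 and 0.274 for TRiC input and pulldown.

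**Figure D1:**
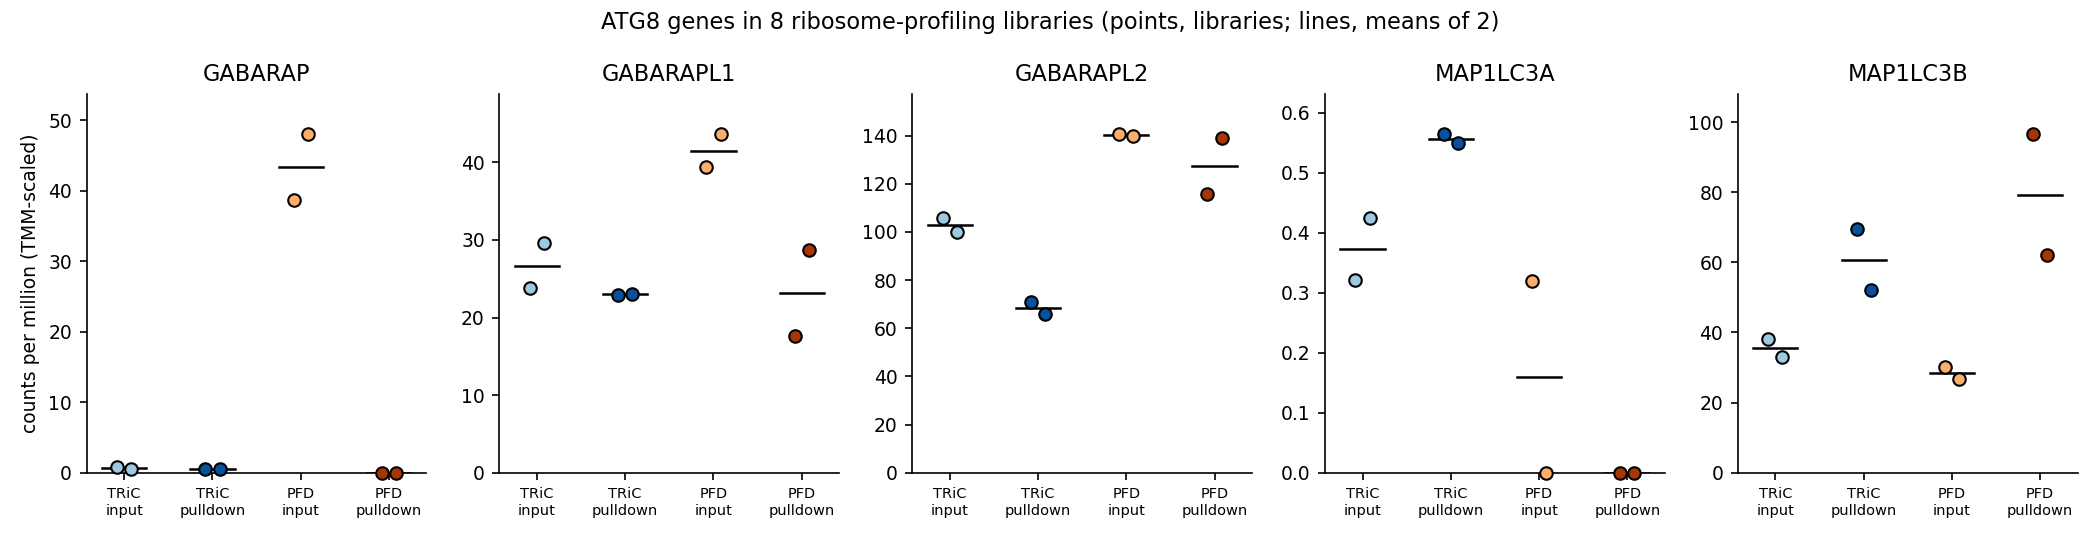
Levels of the 5 ATG8 genes in each library, in TMM-scaled CPM on a linear axis of its own for each gene; points are libraries and lines are means of 2. GABARAP reached 38.7 and 48.1 in the PFD inputs and less than 1 elsewhere, while MAP1LC3B lay higher in the pulldowns than in the inputs of both lines.

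The order of counted reads per kilobase in the TRiC inputs was GABARAPL2, MAP1LC3B, GABARAPL1, GABARAP and MAP1LC3A, with no overlap between neighbours. These orders rank uniquely aligned reads and need not be those of translation. The place of MAP1LC3B is uncertain, since 86.2% of its windows occur elsewhere. That of GABARAP is uncertain as well, since all of its coding bases lie under other genes. In the TRiC pulldowns GABARAPL2 and MAP1LC3B came closer, and their means differed by about the SD of MAP1LC3B. The PFD inputs had the order GABARAPL2, GABARAP (124 ± 18.8, SD, n = 2), GABARAPL1, MAP1LC3B and MAP1LC3A. There GABARAP and GABARAPL1 could not be ordered, since GABARAPL1 reached 118 with the shorter coding length of its canonical transcript. In the PFD pulldowns the order was GABARAPL2, MAP1LC3B and GABARAPL1, with GABARAP and MAP1LC3A at 0. GABARAP (1.53 ± 0.109) and MAP1LC3A (1.48 ± 0.0276) did not differ beyond their spread in the TRiC pulldowns.

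The first comparison asks which nascent chains carry TRiC, by setting TRiC pulldown against TRiC input. MAP1LC3B, of the LC3 branch, rose and GABARAPL2, of the GABARAP branch, fell. The contrast is of single genes and not of the branches. Among the other LC3 genes tested, MAP1LC3A had a log2 fold change of 0.57 and the relative MAP1LC3C, described further below, −0.64. Neither was called. MAP1LC3B had 38.2 and 32.9 CPM as input against 69.5 and 52.2 CPM as pulldown, a log2 fold change of 0.78 ± 0.126 (SE, n = 2 per group, adjusted p = 0.000485 from edgeR). GABARAPL2 had 106 and 99.9 CPM as input against 70.9 and 65.9 CPM as pulldown, a log2 fold change of −0.59 ± 0.0885 (SE, n = 2 per group, adjusted p = 0.000264 from edgeR). Neither pair of groups overlapped.

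Over all 17934 genes tested, 8.64% were called higher and 10.6% lower in the TRiC pulldown. Of the 4 ATG8 genes other than GABARAP, 1 was called in each direction. Differences of GABARAPL1 and MAP1LC3A did not pass the test. Their log2 fold changes were −0.22 ± 0.132 (adjusted p = 0.275 from edgeR) and 0.57 ± 0.858 (adjusted p = 0.697 from edgeR). GABARAP had a log2 fold change of −0.31 ± 0.757, given without a test because its low counts in these libraries were part of the choice. The wide errors of GABARAP and MAP1LC3A went with their 9 to 22 counts per library, and differences of that size were not detectable at this depth. Both calls held without any one library, where the arm left with 1 library is assumed to vary like the other group, and both were lost in a fit of all 8 libraries, which uses the larger spread of the PFD libraries (adjusted p = 0.358 for MAP1LC3B and 0.164 for GABARAPL2 from edgeR).

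In the corresponding comparison for PFD, 0.0496% of 14111 genes tested were called higher in the pulldown and 0.191% lower. None of the 3 members that could be tested, GABARAPL1, GABARAPL2 and MAP1LC3B, was called by edgeR. At an unadjusted p under 0.05 there were 2, GABARAPL1 and MAP1LC3B, against 978 of all 14111 genes. DESeq2 called 1, MAP1LC3B. Over all genes, too, DESeq2 called more than edgeR did, as counted in the closing section. MAP1LC3A did not pass the filter on low counts.

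MAP1LC3B had 30.1 and 26.8 CPM as PFD input against 96.6 and 62.1 CPM as PFD pulldown. Both pulldowns lay above both inputs, and the log2 fold change was 1.498 ± 0.300 (SE, n = 2 per group, adjusted p = 0.247 from edgeR). The gene passed the threshold with DESeq2 (1.51, adjusted p = 3.42e-05), without a filter on low counts (1.49, adjusted p = 1.84e-05 from edgeR) and with a replicate block (1.46, adjusted p = 0.000573 from edgeR). Without PFD pulldown replicate 1 the value was 1.09, and without PFD pulldown replicate 2 it was 1.81. The adjusted p of these fits (0.0107 and 2.35e-06 from edgeR) lends no support, since the pulldown is then a single library assumed to vary like the closely matched inputs, and 395 and 2434 genes are called in place of 34. The adjusted p over all alternatives ranged from 2.35e-06 to 0.249.

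GABARAPL1 had 39.4 and 43.6 CPM as PFD input against 17.7 and 28.6 CPM as pulldown, a log2 fold change of −0.83 ± 0.338 (SE, n = 2 per group, adjusted p = 0.719 from edgeR). Its groups did not overlap. Without PFD pulldown replicate 2 the value was −1.18 (adjusted p = 0.0130 from edgeR), in the same fit with a single pulldown library and 2434 genes called. For GABARAPL2 the values were 141 and 140 CPM as input against 116 and 139 CPM as pulldown, a log2 fold change of −0.13 ± 0.155 (adjusted p = 0.963 from edgeR), with pulldowns just below inputs.

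**Figure D2:**
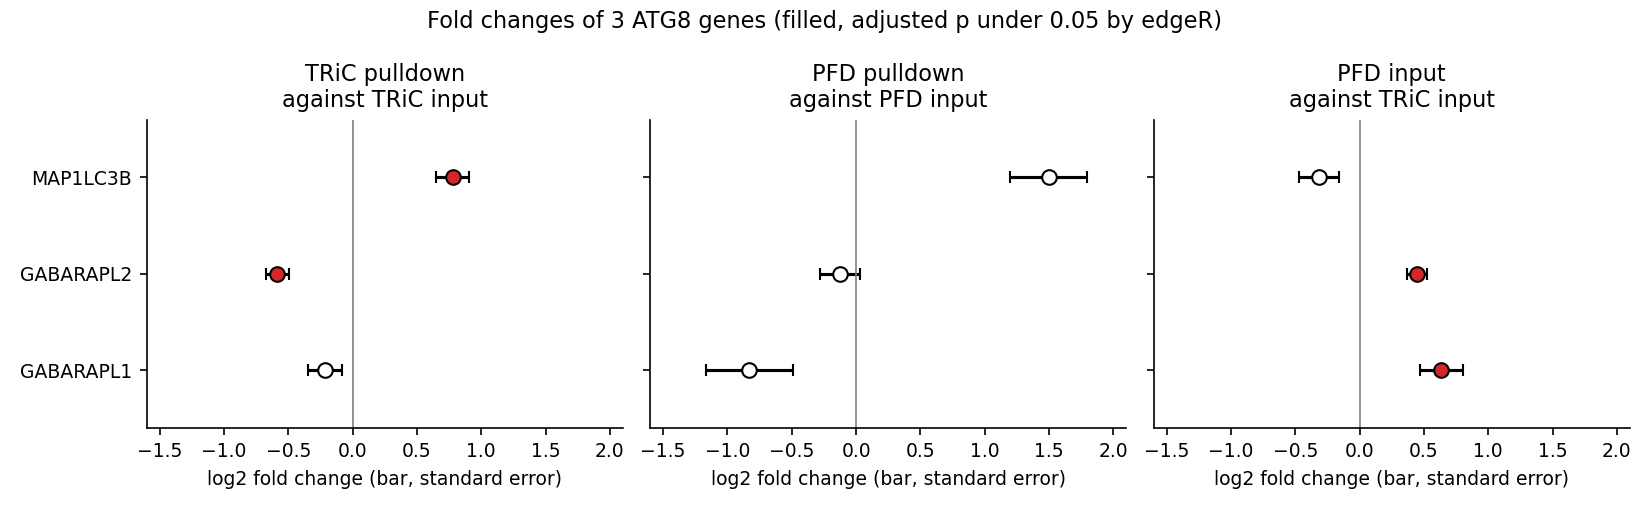
Log2 fold changes of the 3 ATG8 genes with more than 100 counts in every library, as points with standard errors from edgeR fits of 4 libraries each; filled points passed an adjusted p of 0.05. MAP1LC3B was above 0 in both pulldowns (0.78 and 1.498) and GABARAPL2 below 0 (−0.59 and −0.13).

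Whether the enrichments of the 2 lines differ was tested as an interaction over all 8 libraries, in which 0.0212% of 18855 genes were called higher and 0.0159% lower for TRiC. None of the 4 members other than GABARAP was called by edgeR or DESeq2. GABARAPL2 alone had an unadjusted p under 0.05, against 2791 of all genes. The difference, TRiC minus PFD, was −0.70 ± 0.340 for MAP1LC3B (adjusted p = 0.376 from edgeR) and −0.45 ± 0.171 for GABARAPL2 (adjusted p = 0.299). It was 0.62 ± 0.369 for GABARAPL1 (adjusted p = 0.466) and 5.61 ± 2.62 for MAP1LC3A (adjusted p = 0.369), the latter from libraries at or near 0. Without PFD pulldown replicate 2 the difference was −0.96 for MAP1LC3B (adjusted p = 0.0249 from edgeR) and 1.03 for GABARAPL1 (adjusted p = 0.0275), and without PFD pulldown replicate 1 it was −0.57 for GABARAPL2 (adjusted p = 0.0492). The spread of the PFD pulldown is not measured in these fits, which call 3931 and 1245 genes in place of 7, so that these calls do not speak for the members.

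The makeup of the family in counts can be read within each library without any scaling between libraries. These are shares of counted reads. They leave out reads of MAP1LC3B, GABARAP and GABARAPL1 that also align elsewhere, and other genes overlap all coding bases of GABARAP. GABARAPL2 contributed 43.1% to 62.6% of the counts of the 5 genes. MAP1LC3B contributed 22.7% and 20.2% of the TRiC inputs against 42.3% and 36.7% of the pulldowns, and 12.1% and 10.4% of the PFD inputs against 42.0% and 27.0% of the pulldowns. GABARAP made up 15.5% and 18.6% of the family in the PFD inputs and 0 to 0.465% in the other libraries.

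The ratio of MAP1LC3B to GABARAPL2 counts, chosen after the values had been seen, was 0.362 and 0.330 for TRiC input against 0.980 and 0.791 for TRiC pulldown. In the PFD line it was 0.214 and 0.192 for input against 0.835 and 0.446 for pulldown. All 4 pulldown libraries thus lay above all 4 input libraries. With 2 libraries per group this is given as a description without a test.

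**Figure D3:**
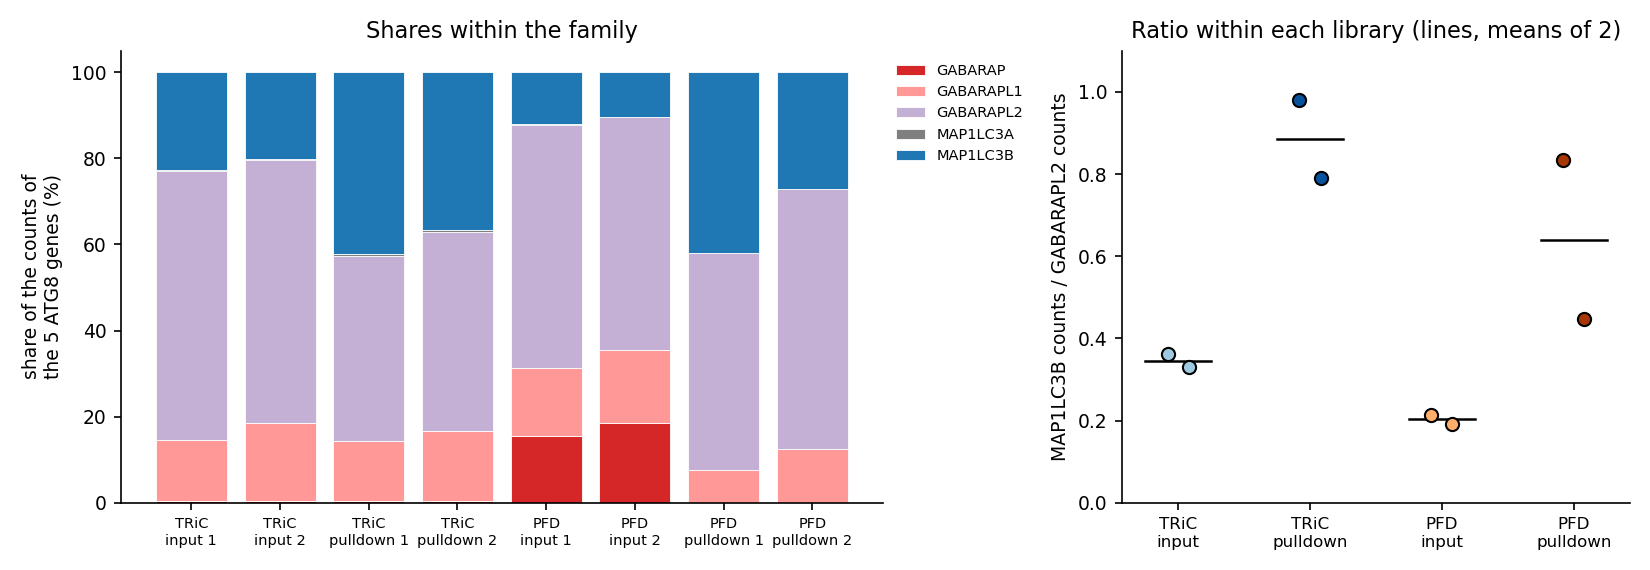
Left, share of each gene in the counts of the 5 ATG8 genes of a library, in percent; right, MAP1LC3B counts divided by GABARAPL2 counts in each library (points) with means of 2 (lines). The ratio was 0.192 to 0.362 in the inputs and 0.446 to 0.980 in the pulldowns.

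Between the inputs of the 2 lines, differences were common: of 16341 genes tested, 17.7% were called higher and 22.6% lower in the PFD inputs, with a median log2 fold change of −0.11 over all genes. These inputs also serve as the controls of the pulldown comparisons. GABARAPL2 was higher in the PFD inputs (141 and 140 CPM against 106 and 99.9) with a log2 fold change of 0.45 ± 0.0782 (SE, n = 2 per group, adjusted p = 0.00885 from edgeR). GABARAPL1 was higher as well (39.4 and 43.6 CPM against 23.8 and 29.6) with 0.63 ± 0.167 (adjusted p = 0.0297 from edgeR). The groups did not overlap for either gene.

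Both calls were sensitive to single libraries. That of GABARAPL1 was lost without TRiC input replicate 1 (0.46, adjusted p = 0.381 from edgeR), without TRiC input replicate 2 (0.79, adjusted p = 0.0677) and in the fit of all 8 libraries (0.64, adjusted p = 0.119). That of GABARAPL2 was lost without TRiC input replicate 2 (0.39, adjusted p = 0.0986 from edgeR). MAP1LC3B had a log2 fold change of −0.32 ± 0.155 (SE, n = 2 per group, adjusted p = 0.160 from edgeR), and without PFD input replicate 1, in a fit with a single PFD input and 10743 genes called in place of 6583, the value was −0.42 (adjusted p = 0.0157).

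For GABARAP the mean of the PFD inputs was 43.4 CPM against 0.670 CPM in the TRiC inputs, a ratio of 64.8. Against the PFD pulldowns, where both libraries had 0 counts, only a bound can be given. With 3 counts per library as the floor (0.315 and 0.109 CPM), the level in the pulldowns was at least 205-fold lower than in the PFD inputs, a bound for counting error only. Of 10288 genes with at least 50 counts in both PFD inputs, 16 (0.156%) had 0 counts in both PFD pulldowns, and GABARAP was among them. In the other direction 24 genes had at least 50 counts in both PFD pulldowns and 0 in both PFD inputs, and 1 gene had that many in both TRiC inputs and 0 in both TRiC pulldowns.

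The annotation of the GABARAP locus is given because the authors' gene counting assigns a read only where it meets a single gene. The annotation release and the strand column are not known here. Whether overlapping genes affected the GABARAP counts was not tested. All 351 coding bases of GABARAP lie under exons of other annotated genes. The first coding exon (chr17:7242241-7242330, 90 bases) lies under an exon of ENSG00000279641, an opposite-strand gene of the annotation class TEC, for loci that still need experimental proof (chr17:7242200-7243814). The other 3 coding exons, of 79, 119 and 63 bases, lie under exons of ENSG00000262526, a same-strand readthrough gene (chr17:7240427-7244635).

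The junction of the first and second coding exons is shown because it is where the coding sequence passes from under one of these genes to under the other. It joins 15 bases of exon 1 (chr17:7242241-7242255, capitals) to 15 bases of exon 2 (chr17:7241665-7241679, lower case), on the minus strand of hg38.
GABARAP: CCGGACCGGGTGCCGgtgatagtagaaaag
The TEC gene had 0 counts in both PFD inputs and 1 and 38 as PFD pulldown, with 32 and 30 counts as TRiC input and 62 and 27 as TRiC pulldown. Its PFD inputs thus had no counts, where GABARAP had the most. PFD pulldown replicate 1, with 1 count, did not stand apart from those inputs. The readthrough gene had 0 counts in all 8 libraries.

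The neighbours of GABARAP did not share its pattern. PHF23, a gene of a PHD finger protein on its downstream side, had 36.4 ± 3.90 CPM (SD, n = 2) as PFD input and 46.3 ± 3.29 as PFD pulldown, with 41.7 ± 3.53 and 34.7 ± 1.49 in the TRiC inputs and pulldowns. CTDNEP1, a nuclear envelope phosphatase gene on the upstream side, had 34.7 ± 0.487 CPM as PFD input and 30.9 ± 14.3 as PFD pulldown, with 32.6 ± 0.118 and 27.7 ± 4.25 in the TRiC line. In both genes the highest group mean was less than 2-fold above the lowest.

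Across the genome, more of the genes that lie wholly under opposite-strand exons had counts in the PFD inputs than in the other libraries. Of 794 genes with every exon base under opposite-strand exons and none under same-strand exons, 35 had a count in each PFD input, 2 and 5 in the PFD pulldowns, and 6 to 8 in the TRiC libraries. Their summed level was 75.8 and 83.8 CPM, relative to library totals, in the PFD inputs and 6.09 to 18.0 in the other 6 libraries. GABARAP is not one of these 794, since same-strand exons cover 35.4% of its exon bases and opposite-strand exons 12.8%. It belongs to 907 genes whose coding bases all lie under exons of other genes. Of these, 226 and 184 had at least 1 count in the PFD inputs, against 330 to 347 in the TRiC libraries and 125 and 180 as PFD pulldown. Across all genes as well, fewer had a count in the PFD inputs (18682 and 16257) than in the TRiC libraries (26298 to 27679). The PFD pulldowns had 15672 and 18907 such genes. The summed level of the 907 genes was 2097 and 2224 CPM in the PFD inputs and 1457 to 1845 CPM in the other 6 libraries. The part of either difference between libraries in the GABARAP values was not tested. The coding bases of the other 4 members lie under no other gene.

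**Figure D4:**
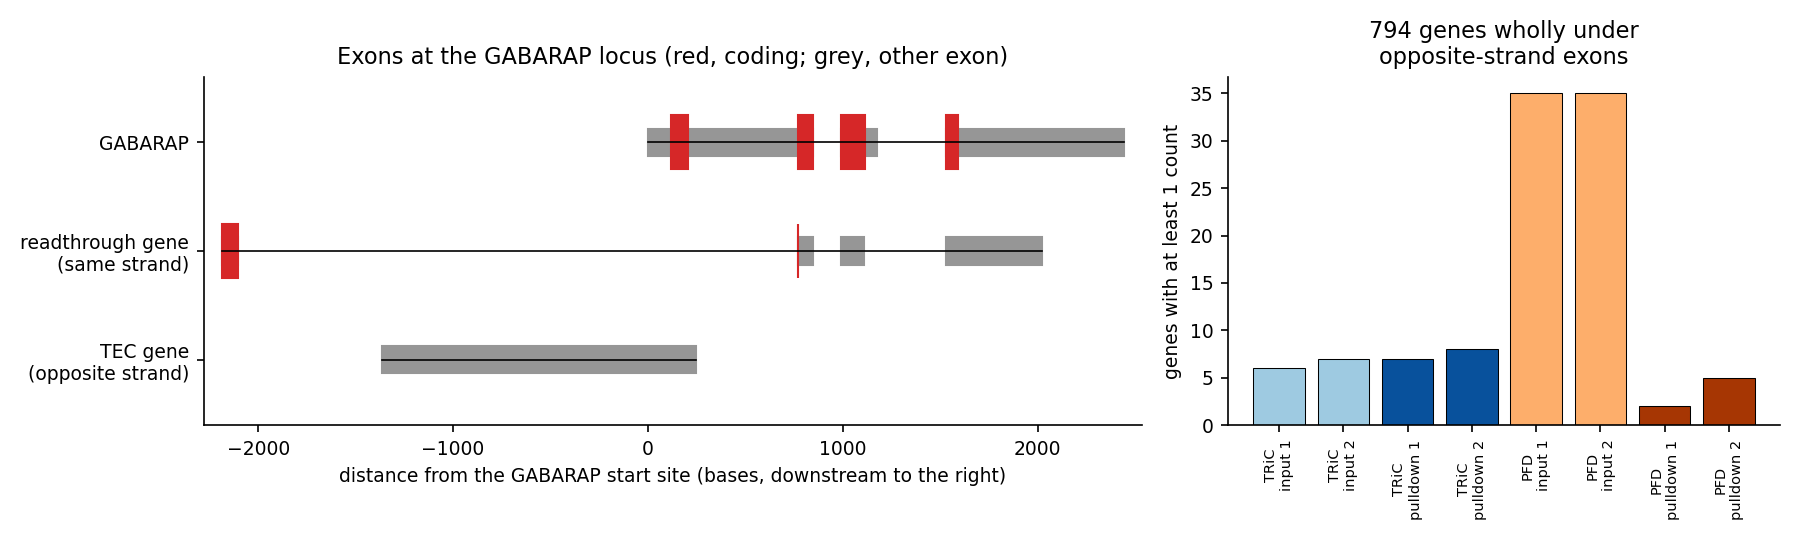
Left, exons of GABARAP, of the same-strand readthrough gene and of the opposite-strand TEC gene, by distance from the GABARAP start site in bases (red, coding; grey, other exon). Right, number of the 794 genes wholly under opposite-strand exons that had at least 1 count in each library, 35 in both PFD inputs and 2 to 8 elsewhere.

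The genes whose profile was most like that of GABARAP, by Pearson's r of log2(CPM + 1) over 8 libraries among 10937 genes with a mean of at least 5 CPM, were HLA-H (r = 0.995), SPSB3 (0.992), H2AC15 (0.992), ZNF593 (0.990) and CHTOP (0.989). The 8 points of such a profile fall into 2 PFD inputs and 6 other libraries, and 67 genes had r above 0.9. A high r does not show the size of the difference. HLA-H had 890 and 474 counts as PFD input and 70 to 261 in the other libraries. For CHTOP these were 2150 and 1288 against 763 to 2909. By Spearman's correlation SLC45A4 was the most alike (0.994), and CHTOP (0.970) tied with MNT, POLE4, FBXO4 and NEIL2 after it, while the other 4 of the genes above had 0.737 to 0.922. SPSB3, a gene of an adaptor of ubiquitin ligases, had 364 and 366 counts as PFD input, 0 and 2 as PFD pulldown and 20 to 38 in the TRiC libraries, and all of its coding bases lie under opposite-strand exons.

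Counts of at least 50 in both PFD inputs and at most 3 in each other library were found for 6 genes. GABARAP, with 13 to 22 counts in the TRiC libraries, is not among them. The 5 with the highest level in the PFD inputs were H2AC15 (519 and 377 counts), ZNF593 (579 and 285), RNU1-138P (506 and 205), SFT2D3 (279 and 161) and C19orf33 (258 and 109), all with 0 counts in the other 6 libraries. The sixth was SNORA72 (101 and 109). Opposite-strand exons cover every exon base of ZNF593, SFT2D3, C19orf33 and SNORA72 and 93.3% of those of RNU1-138P, while no other gene overlaps H2AC15.

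Among the relatives of the family, MAP1LC3C, an LC3 protein known for a role in the autophagy of bacteria, was detected mainly in the TRiC line. It had 142 and 219 input counts and 118 and 111 pulldown counts in the TRiC line, with 0 and 5 input counts and 0 and 35 pulldown counts in the PFD line. Across all genes, too, fewer had a count in the PFD inputs (18682 and 16257) than in the TRiC inputs (27455 and 26634). The log2 fold change of MAP1LC3C between the inputs was −4.90 ± 1.25 (SE, n = 2 per group, adjusted p = 0.0273 from edgeR), where 22.6% of all genes were called lower. It ranged from −3.66 without PFD input replicate 1 to −10.31 without PFD input replicate 2. The call was lost without TRiC input replicate 2 (−4.46, adjusted p = 0.116 from edgeR) and in the fit of all 8 libraries (−4.79, adjusted p = 0.104). In the TRiC pulldown its log2 fold change was −0.64 ± 0.265 (adjusted p = 0.100 from edgeR), called without TRiC pulldown replicate 2 (−0.79, adjusted p = 0.0417). MAP1LC3B2 had 0 to 16 counts per library, and the pseudogene GABARAPL3 had 0 in all 8.

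The proteins that process, load and use the ATG8 proteins were examined as 4 lists. The first holds 10 genes of the conjugation machinery: the ATG4 proteases, the E1-like ATG7, the E2-like ATG3 and ATG10, and the ATG12, ATG5 and ATG16L1 proteins that form the final ligase. None of the 10 was called in the TRiC pulldown by edgeR or DESeq2, and none had an unadjusted p under 0.05. Their median log2 fold change was 0.10, against −0.003 over all genes. The 2 most abundant were ATG3 with 69.0 ± 3.82 CPM (SD, n = 2) in the TRiC inputs and 62.5 ± 4.25 in the pulldowns, and ATG4B with 74.3 ± 1.34 and 79.3 ± 4.97.

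In the PFD pulldown none of the 10 was called by edgeR either. Only ATG4A had an unadjusted p under 0.05, against 978 of all 14111 genes. It was also the 1 gene of the list called by DESeq2, which called 295 of all genes lower. ATG3 had 88.1 ± 16.4 CPM (SD, n = 2) in the PFD inputs and 80.0 ± 13.03 in the pulldowns, and ATG4B had 65.0 and 67.2 CPM as input and 66.3 and 74.1 as pulldown. ATG4A, a protease with a preference for the GABARAP branch, is named here after its values were seen. It had 77 and 57 counts in the PFD inputs and 0 in both PFD pulldowns, at least 22.6-fold lower at a floor of 3 counts per library, with 37 to 59 counts in the TRiC libraries. No other gene overlaps its exons.

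Between the inputs edgeR called 2 of the 10 conjugation genes higher in the PFD line and 0 lower, where 17.7% and 22.6% of all genes were. At an unadjusted p under 0.05 there were 5, and DESeq2 called 4 higher and 2 lower. Over all 16341 genes tested, 8048 had an unadjusted p under 0.05, and DESeq2 called 3768 higher and 4648 lower. ATG7 had 42.3 ± 2.13 CPM (SD, n = 2) in the TRiC line and 76.0 ± 4.03 in the PFD line, and its log2 fold change was 0.85 ± 0.109 (SE, adjusted p = 0.00316 from edgeR). ATG16L1 had a log2 fold change of 0.81 ± 0.166 (adjusted p = 0.0148 from edgeR), which was not called without TRiC input replicate 2 (0.73, adjusted p = 0.0785). The median of the list was 0.26 against −0.11 over all genes.

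The second list holds 21 genes of autophagy initiation and membrane supply, including the ULK1 kinase complex, the phosphatidylinositol 3-kinase complexes and lipid carriers. In the TRiC pulldown 3 of them rose and 1 fell, where 8.64% and 10.6% of all genes did, and the list median was 0.12. VMP1, a lipid scramblase of the endoplasmic reticulum, rose from 350.2 ± 2.52 to 563 ± 44.04 CPM (SD, n = 2), with a log2 fold change of 0.69 ± 0.0717 (SE, adjusted p = 7.09e-06 from edgeR). UVRAG, a subunit of a phosphatidylinositol 3-kinase complex, rose by 0.57, TMEM41B, a second scramblase, by 0.29, and the lipid transfer protein gene ATG2A fell by 0.29. The call of VMP1 held without any one library. Those of UVRAG, TMEM41B and ATG2A were lost without TRiC input replicate 1, those of TMEM41B and ATG2A also without TRiC input replicate 2 or TRiC pulldown replicate 2, and that of ATG2A with library totals (adjusted p = 0.0995 from edgeR).

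None of the 20 initiation genes tested was called in the PFD pulldown by edgeR or DESeq2, and none had an unadjusted p under 0.05. VMP1 had 238 ± 26.8 CPM (SD, n = 2) in the PFD inputs and 218 ± 65.9 in the pulldowns, and PIK3R4, a regulatory subunit of the phosphatidylinositol 3-kinase complexes, had 100.3 ± 9.66 and 91.9 ± 36.02. Between the inputs 4 of 21 genes were higher in the PFD line and 7 lower, against 17.7% and 22.6% of all genes, with a list median of −0.17. The 3 largest in each direction were UVRAG (log2 fold change 0.86), ATG101 (0.82) and WDR45B (0.65), and ATG2B (−2.50), ATG9A (−0.84) and ATG2A (−0.63). The calls of UVRAG and WDR45B were lost without either TRiC input, and that of ATG2B with all 8 libraries. Other genes cover 53.1% of the coding bases of ATG101 and 30.3% of those of ATG9A.

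The third list holds 18 receptors that bind ATG8 proteins on the membrane and bring cargo to them. In the TRiC pulldown 1 rose and 3 fell, against 8.64% and 10.6% of all genes, and the list median was −0.07. WDFY3, a large scaffold for aggregate clearance, rose by 0.69 ± 0.091 on the log2 scale (SE, n = 2 per group, adjusted p = 7.71e-05 from edgeR). FKBP8, a mitophagy receptor, had a log2 fold change of −0.55 ± 0.0868 (adjusted p = 0.000408 from edgeR), and BNIP3L, another mitophagy receptor, and SQSTM1, the p62 receptor of ubiquitinated cargo, fell by 0.33 and 0.26. The calls of WDFY3 and FKBP8 held without any one library. That of BNIP3L was lost without TRiC input replicate 2, and that of SQSTM1 without either TRiC input, without TRiC pulldown replicate 2 (−0.12), with library totals (−0.21) and with DESeq2 (−0.24) or its size factors. In the fit of all 8 libraries no call of the 4 lists in the TRiC pulldown remained among the genes named here.

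SQSTM1 differed most clearly between the inputs. It had 188 ± 3.20 CPM (SD, n = 2) in the TRiC inputs and 524 ± 1.58 in the PFD inputs, and its log2 fold change was 1.48 ± 0.0563 (SE, adjusted p = 0.000121 from edgeR). Of the 18 receptors 3 were higher in the PFD inputs and 6 lower, against 17.7% and 22.6% of all genes. OPTN (0.44) and CALCOCO2 (0.43) were the other 2 that were higher. Of the other receptors of ubiquitinated cargo in the list, named here after their values were seen, NBR1 was lower (−0.39, adjusted p = 0.0217 from edgeR) and TAX1BP1 had a log2 fold change of 0.07 (adjusted p = 0.507). BNIP3L (−1.18), BNIP3 (−1.01), both mitophagy receptors, and RTN3 (−0.55), a receptor for tubules of the endoplasmic reticulum, were the 3 that fell most. The calls of OPTN, CALCOCO2 and BNIP3 were lost without either TRiC input and with all 8 libraries, and opposite-strand exons cover 11.7% of the coding bases of SQSTM1.

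No receptor was called in the PFD pulldown by edgeR or DESeq2, with 1 at an unadjusted p under 0.05, against 978 of all 14111 genes. SQSTM1 had 489 ± 20.9 CPM (SD, n = 2) in the PFD pulldowns. NCOA4, the receptor of ferritin, had 252 ± 29.5 in the PFD inputs and 279 ± 23.2 in the pulldowns.

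The fourth list holds 13 genes for the fusion of autophagosomes with lysosomes. Against 8.64% and 10.6% of all genes, 2 of them rose in the TRiC pulldown, PLEKHM1 (log2 fold change 0.75) and EPG5 (0.24), both tethering factors, and 3 fell, the SNARE gene SNAP29 (−0.38), the small GTPase gene RAB7A (−0.32) and the tether subunit gene VPS18 (−0.30). The call of PLEKHM1 was lost without TRiC input replicate 2, that of RAB7A without either TRiC input, and those of EPG5, SNAP29 and VPS18 without either TRiC input or TRiC pulldown replicate 2. With library totals SNAP29 (adjusted p = 0.0535 from edgeR) and VPS18 (0.0927) were not called, and without a filter on low counts EPG5 (0.0954) was not. Between the inputs 5 of 13 were higher in the PFD line and 1 lower, against 17.7% and 22.6% of all genes. VAMP8, a lysosomal SNARE, had 25 and 16 counts in the TRiC inputs and 190 and 46 in the PFD inputs (log2 fold change 3.36, adjusted p = 0.0130 from edgeR), followed by EPG5 (0.72) and SNAP29 (0.54), and VPS39, a tether subunit, was lower (−1.39). SNAP29, 29.1% of whose coding bases lie under opposite-strand exons, was not called without either TRiC input. With all 8 libraries SNAP29 and VAMP8 were not called. The list median was 0.04 in the TRiC pulldown and 0.14 between the inputs.

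In the PFD pulldown none of the 13 was called by edgeR. Only VPS41 had an unadjusted p under 0.05, against 978 of all 14111 genes. It was also the 1 gene of the list called by DESeq2, which called 295 of all genes lower. RAB7A had 206 ± 12.01 CPM (SD, n = 2) in the PFD inputs and 234 ± 27.2 in the pulldowns, and EPG5 had 178 ± 13.7 and 181 ± 40.8. No gene of the 4 lists was called in the interaction by edgeR. At an unadjusted p under 0.05 there were 1 in the conjugation list and 2 in each of the other 3, against 2791 of all 18855 genes. By DESeq2 the calls were ATG4A, VMP1, RAB7A and VPS41, where 481 of all genes were called higher and 536 lower.

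**Figure D5:**
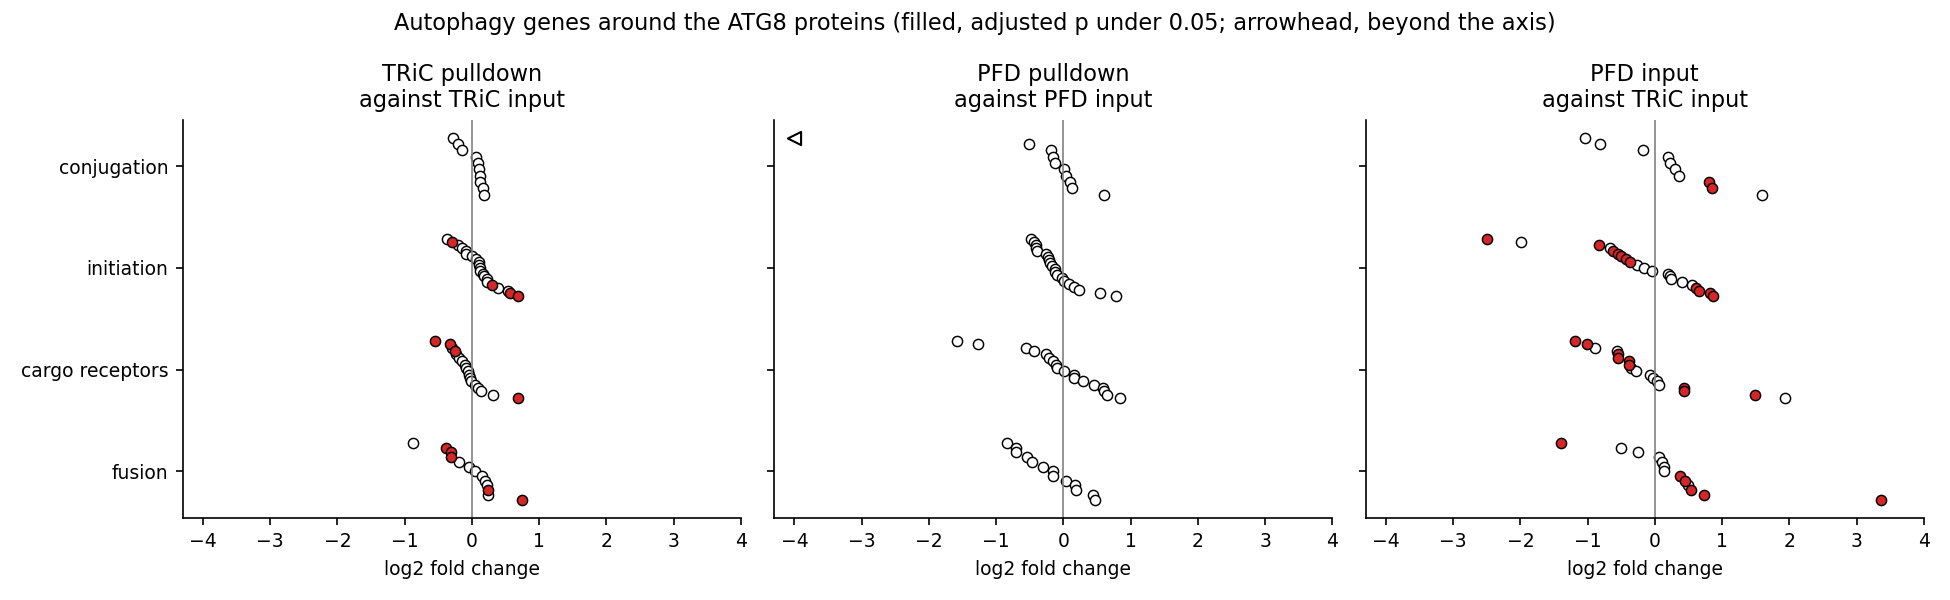
Log2 fold changes of the genes of the 4 lists in 3 comparisons, 1 point per gene tested; filled points passed an adjusted p of 0.05 from edgeR, and the arrowhead is ATG4A, whose PFD pulldowns had 0 counts. No point is filled in the PFD pulldown, and the points spread most widely between the inputs.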

How the data were processed

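Per the labels and the methods, the authors removed reads of non-coding RNA with Bowtie2 2.4.2, aligned the rest uniquely to hg38 with STAR 2.7.10a and counted reads per gene. The submitters' processing notes also name UMI-tools. The deposited values are whole-number counts without normalization, in a table for each line. The annotation release and the strand column are not given in the sources used here. GENCODE release 44 named 60463 of 60664 identifiers.

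Counts were compared with edgeR 4.0.16 in R 4.3.3 (TMM, filterByExpr, glmQLFit, glmQLFTest, Benjamini-Hochberg adjusted p under 0.05 over all genes tested), within each line over 4 libraries, between inputs over 4, and as an interaction over 8. CPM was scaled by TMM over all 8 libraries. The scripts were tested on simulated data. The members and lists were chosen with earlier results of these data known.

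Named were the ATG8 genes and relatives; of each list the called genes, at most 3 per direction, or else the 2 most abundant; the 5 profiles closest to GABARAP; the 5 highest genes seen almost only in the PFD inputs; and the genes at its locus. Alternatives were DESeq2 1.42.0, its size factors within edgeR, library totals, other filters, a replicate block, a fit of all 8 libraries together, and omission of single libraries. Their use on the pathway genes, and the canonical coding lengths, were chosen after seeing the data. Positions of reads within genes were not used here.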

Additional observations from a re-analysis of the deposited data

How the results depend on the processing

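The log2 fold changes of the tested ATG8 genes kept their sign in every alternative and every comparison, and the changed calls of these genes are given above. The 1 reversal was the interaction of the relative MAP1LC3C, which was −2.26 and became 4.51 without PFD pulldown replicate 2, its range on leaving out a library being −7.74 to 4.51.

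Counts of genes called over all genes moved more. In the TRiC pulldown 3444 genes were called, and 31 in the fit of all 8 libraries. The range on leaving out a library was 1698 to 4698. In the PFD pulldown 34 were called, 134 with the replicate block, 551 with DESeq2, 152 without a filter, 83 with all 8 libraries, and 71 to 2434 on leaving out a library. Between inputs 6583 were called, 3858 with all 8 libraries, and 3626 to 11084 on leaving out a library. The interaction called 7 genes, 1017 with DESeq2, 511 without a filter, 14 with at least 10 counts in every library, and 0 to 3931 on leaving out a library. With library totals 58.7% of the calls in the TRiC pulldown were higher, against 45.0% with TMM. A fit without 1 library leaves an arm of a single library, assumed to vary like the other groups. The causes of these changes were not tested.

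Replicate numbers were not shown to pair the samples. With 2 numbers, the deviations of same-numbered libraries correlated at 0.146 between TRiC input and pulldown, −0.067 between PFD input and pulldown and −0.025 between the inputs. The replicate block changed the call of MAP1LC3B in the PFD pulldown and of no other ATG8 gene.

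With at least 20 counts in place of 50, 10 genes rather than 6 had counts almost only in the PFD inputs. Over the length of all exons, levels per kilobase were lower for every member, such as 22.2 CPM for GABARAP in the PFD inputs. The PFD pulldowns, with 9523128 and 28582306 counts and a wide spread, limit what could be detected there, and gene counts do not show where in a coding sequence a chaperone bound.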
